A study of Mus musculus with 6 samples.

Results

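Integrins and laminins are the receptors and the ligands through which many cells hold on to the matrix around them. The family examined here took in every mouse gene whose symbol is spelled as an integrin alpha or beta gene or as a laminin alpha, beta or gamma chain, and that had a probe set of its own among those analysed. This gave 38 genes with 39 probe sets, among 19937 genes with 21640 probe sets carrying a single gene symbol. They were 18 integrin alpha subunits, 10 integrin beta genes and 10 laminin chains. Itgad alone had more than 1 probe set. Itgbl1 fitted the spelling, but it encodes a beta-like protein and not a receptor subunit.

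The genes were read in hippocampal primary neurospheres, which are floating spheres that neural precursor cells form in culture. The titles of all samples call them big neurospheres. The cells came from male C57BL/6J mice of 8 to 12 weeks. All spheres grew in complete neurosphere medium with EGF and bFGF, either with 10 µM norepinephrine (3 arrays) or with 15 mM potassium chloride, called KCl below (3 arrays), and were harvested on day 14. Every difference below is norepinephrine minus KCl in log2 units. No untreated spheres were analysed here, so a lower value with norepinephrine and a higher value with KCl cannot be told apart. The labels call the samples biological replicates without saying whether each was a separate culture, so a p-value here speaks of the spread among these samples, which may be technical. In RNA from whole spheres, fewer cells of a type and less RNA per cell cannot be told apart.

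An integrin is a pair of an alpha and a beta subunit that spans the membrane, binds matrix outside the cell and links to actin inside it through adaptors such as talin and kindlin. A laminin is a trimer of an alpha, a beta and a gamma chain, and laminins are the main cell-binding proteins of basement membranes. In the germinal zones of the brain, integrins that contain the beta 1 subunit and the laminins they bind are known for anchoring neural stem cells to the ventricular surface and to blood vessels.

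The array of KCl replicate 1 stood apart. Its log2 values had a standard deviation of 1.38 over the named probe sets, against 1.62 to 1.78 on the other 5 arrays. Among probe sets above the median signal, KCl replicate 1 gave the lowest of the 6 values in 46.3%. Among those under the median signal it gave the highest in 78.4%. Results are therefore given with and without this array. Of 13 measured markers of neural stem and precursor cells, 8 were above 0, with a median difference of 0.22 (0.12 without KCl replicate 1). Fabp7, a lipid carrier of radial glia, read 12.95, 12.75 and 12.99 on the norepinephrine arrays and 13.15, 12.98 and 13.02 on the KCl arrays. Sox2, a transcription factor of neural stem cells, read 10.50, 10.19 and 10.37 with norepinephrine and 9.43, 10.33 and 10.25 with KCl. The other markers were not all as high or as even. Prom1, a membrane protein of precursor cells, averaged 7.44 with norepinephrine and 6.84 with KCl, and was the 1 marker higher at an unadjusted p under 0.05 (7.69%, against 2.2% of all probe sets). Without overlap, 3 of the 13 were higher (23.1%, against 4.36% of all probe sets). They were Prom1, Vim at 0.44 ± 0.21 and Msi1 at 0.36 ± 0.18. Hes1, a Notch target, was the 1 marker lower without overlap (7.69%, against 4.77% of all probe sets), at -0.38 ± 0.19. Nes, an intermediate filament of precursor cells, stood at -0.10 ± 0.37 on 6 arrays and at -0.58 without KCl replicate 1.

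The lowest difference of the family was that of Itga4, the alpha 4 subunit, which pairs with the beta 1 or beta 7 subunit and binds the adhesion molecule Vcam1 and fibronectin. Its related subunit Itga9 and the laminin chain Lamb1 also read lower on every norepinephrine array than on any KCl array. The sequences at the starts of these 3 genes are printed here because they are the members above the median signal that were lower without overlap. Itga4 was above that median of 7.16 only through its KCl arrays, with means of 7.04 with norepinephrine and 8.36 with KCl. The sequences are RefSeq promoter windows of the GRCm38.p6 build, each with 250 bases before and 50 bases after the annotated start. Capitals mark matches to the GC box GGGCGG or to TGACG, the core of the cAMP response element, on either strand (on the minus strand they read CCGCCC and CGTCA). The full element TGACGTCA, which contains this core, and the TATA box TATAAA were also searched.
Itga4, chr2:79255176-79255475, plus strand: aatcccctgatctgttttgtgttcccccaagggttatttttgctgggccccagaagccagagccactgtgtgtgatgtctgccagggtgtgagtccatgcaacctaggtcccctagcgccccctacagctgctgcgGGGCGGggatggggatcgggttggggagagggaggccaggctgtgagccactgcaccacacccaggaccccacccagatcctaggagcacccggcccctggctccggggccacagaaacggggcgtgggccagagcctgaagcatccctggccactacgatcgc
Itga9, chr9:118711442-118711741, plus strand: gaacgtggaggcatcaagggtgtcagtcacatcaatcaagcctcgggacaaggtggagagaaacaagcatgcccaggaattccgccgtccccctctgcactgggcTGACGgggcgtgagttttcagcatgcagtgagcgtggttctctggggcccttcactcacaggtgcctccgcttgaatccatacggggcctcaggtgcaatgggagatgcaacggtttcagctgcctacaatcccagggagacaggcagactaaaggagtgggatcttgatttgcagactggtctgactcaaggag
Lamb1, chr12:31265043-31265342, plus strand: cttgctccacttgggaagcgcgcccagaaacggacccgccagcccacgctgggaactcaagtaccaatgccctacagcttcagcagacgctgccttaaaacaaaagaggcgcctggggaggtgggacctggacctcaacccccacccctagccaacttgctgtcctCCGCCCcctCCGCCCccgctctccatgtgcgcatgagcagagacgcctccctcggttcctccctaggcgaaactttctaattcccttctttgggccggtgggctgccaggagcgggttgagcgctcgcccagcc

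The Itga4 window held 1 GC box, starting at base 137 of 300, the Itga9 window 1 element core at base 106, and the Lamb1 window 2 GC boxes on the minus strand at bases 167 and 176. Windows were given for 25 of the 38 genes, 28 windows in all. A GC box stood in 13 of these 28 and in 35.7% of all 32851 windows of the same length, and the element core in 5 of 28 and in 20.8%. The full cAMP response element and the TATA box were in 0 of the 28 windows, against 1.79% and 13.6% of all windows. A match of letters is a description and does not show that a factor binds there.

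Itga4 read 7.28, 6.70 and 7.15 on the norepinephrine arrays and 8.00, 8.60 and 8.47 on the KCl arrays. The means were 7.04 ± 0.30 and 8.36 ± 0.32 (SD, n = 3 each), so that the signal was 2.49-fold higher with KCl. The difference was -1.32 ± 0.24 (SE), and the unadjusted p was 0.000456. It stayed between -1.49 and -1.14 when any 1 array was left out, and the highest unadjusted p in those 6 fits was 0.00301. Over all probe sets it did not pass, with an adjusted p of 0.8 in limma on 6 arrays and 0.0943 without KCl replicate 1.

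Itga9, whose product pairs with the beta 1 subunit and binds tenascin C and Vcam1, gave 7.46, 7.26 and 7.14 with norepinephrine and 7.69, 7.93 and 7.64 with KCl. No norepinephrine array reached the lowest KCl array. The difference was -0.47 ± 0.19, with an unadjusted p of 0.0388 and an adjusted p of 0.939. It ranged from -0.55 to -0.38 as single arrays were left out.

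**Figure D1:**
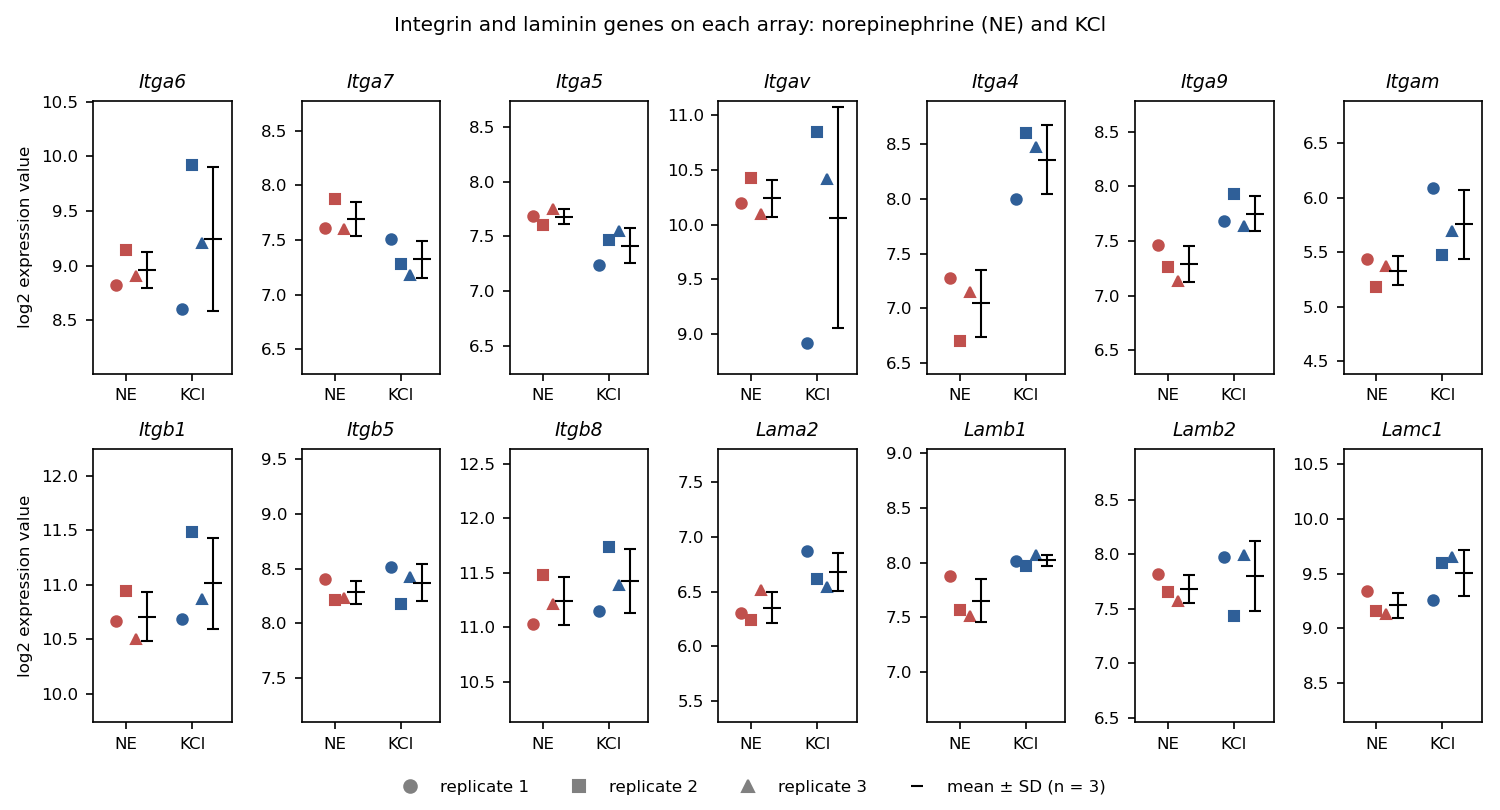
Log2 expression value of 14 integrin and laminin genes on each array, norepinephrine (NE) left and KCl right, with the group mean and SD (n = 3); each panel spans the same log2 range around its own centre. Itga4, Itga9 and Lamb1 lie lower on all 3 norepinephrine arrays, Itga7 and Itga5 lie higher, and the KCl points of Itgav and Itga6 are spread by a low KCl replicate 1 and a high KCl replicate 2.

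The laminin receptor subunits lay on both sides of 0. Itga6, the alpha 6 subunit of the laminin receptors formed with beta 1 or beta 4, read 8.82, 9.14 and 8.91 with norepinephrine and 8.60, 9.92 and 9.20 with KCl. KCl replicate 1 was the lowest array and KCl replicate 2 the highest, so the groups overlapped, and the difference was -0.29 ± 0.32. It was -0.61 without KCl replicate 1 and 0.05 without KCl replicate 2.

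Itga7, a laminin receptor subunit best known from muscle, lay above 0. Its values were 7.61, 7.87 and 7.60 with norepinephrine and 7.51, 7.28 and 7.18 with KCl, without overlap. The difference was 0.37 ± 0.19 (unadjusted p of 0.0870) on 6 arrays and 0.46 ± 0.17 (unadjusted p of 0.0238) without KCl replicate 1. Itga3, the third alpha subunit of this set, differed by -0.16 ± 0.22, or -0.06 without KCl replicate 1.

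The beta subunits of laminin receptors are Itgb1, the common partner of many alpha subunits, and Itgb4, which pairs with alpha 6 in epithelia. Itgb1 read 10.67, 10.95 and 10.50 with norepinephrine and 10.69, 11.49 and 10.87 with KCl, which overlapped. Its difference was -0.31 ± 0.25. It was -0.47 ± 0.23 without KCl replicate 1 and -0.07 without KCl replicate 2. Itgb4 stood at -0.15 ± 0.27, and at 0.11 without KCl replicate 1.

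Receptors for the RGD motif of fibronectin and vitronectin, some of which also bind latent TGF-beta, were next. Itgav, the alpha subunit shared by many of them, read 10.20, 10.43 and 10.10 with norepinephrine and 8.92, 10.85 and 10.42 with KCl. KCl replicate 1 lay below all other arrays by over 1 log2 unit. The difference of 0.18 ± 0.44 turned to -0.39 ± 0.20 without that array and was 0.57 without KCl replicate 2.

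Itgb8, which pairs with alpha v and binds latent TGF-beta, gave 11.03, 11.48 and 11.22 with norepinephrine and 11.15, 11.73 and 11.39 with KCl. In each treatment replicate 2 was the highest, and the groups overlapped. The difference was -0.18 ± 0.22 (-0.03 without KCl replicate 2, and -0.32 without KCl replicate 1). Itgb5, another partner of alpha v, read 8.40, 8.21 and 8.23 with norepinephrine and 8.51, 8.18 and 8.42 with KCl, at -0.09 ± 0.19. It was -0.02 without KCl replicate 1 and -0.18 without KCl replicate 2.

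Itga5, the alpha subunit of the classical fibronectin receptor, was higher on every norepinephrine array, at 7.69, 7.61 and 7.75, than on the KCl arrays, at 7.24, 7.47 and 7.55. The difference of 0.27 ± 0.18 had an unadjusted p of 0.181, and it was 0.18 without KCl replicate 1. Among the others of this set, Itga8, a nephronectin receptor subunit, stood at -0.11, the platelet subunit Itga2b at -0.22, Itgb3 at -0.25 and the epithelial subunit Itgb6 at -0.20, all with overlapping groups. Without KCl replicate 1 these 4 lay between -0.09 and -0.01.

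The collagen receptor subunits Itga1, Itga2, Itga10 and Itga11 were all below 0 on 6 arrays, from -0.40 to -0.07, with overlapping groups. Itga1 was singled out after its values were seen, because its unadjusted p was 0.0115 without KCl replicate 1. It read 6.52, 6.86 and 6.52 with norepinephrine and 6.68, 7.33 and 7.09 with KCl. Its difference was -0.40 ± 0.23 on 6 arrays, -0.58 ± 0.18 without KCl replicate 1, and -0.25 without KCl replicate 2. Itga11 stood at -0.26 on 6 arrays and at -0.00037 without KCl replicate 1.

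The leukocyte subunits are background for the immune cells a hippocampal culture can hold. Itgam, the alpha M subunit of the complement receptor of microglia and macrophages, read 5.43, 5.18 and 5.38 with norepinephrine and 6.09, 5.47 and 5.70 with KCl. The groups did not overlap, with KCl replicate 1 the highest, and the difference was -0.42 ± 0.21 on 6 arrays and -0.25 ± 0.17 without that array. Of the 5 leukocyte alpha subunits 5 were below 0 on 6 arrays and 3 without KCl replicate 1. Of the 3 leukocyte beta genes 2 were below 0 on 6 arrays and 0 without it. Itgb2, the partner of most but not all of these alpha subunits, stood at 0.14 ± 0.22, or 0.27 without KCl replicate 1.

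Markers of microglia and macrophages were read beside these subunits. Of 17 measured markers, 15 were below 0 on 6 arrays (88.2%, background 62%), with a median of -0.20. Without KCl replicate 1, 7 were (41.2%, background 47.8%), with a median of 0.016. Their mean level was 6.36, 6.21 and 6.34 on the norepinephrine arrays and 6.89, 6.18 and 6.44 on the KCl arrays. Mpeg1 alone was lower at an unadjusted p under 0.05 (5.88%, background 1.24%) and alone lower without overlap (5.88%, background 4.77%). It stood at -0.43 ± 0.19, or -0.42 without KCl replicate 1. Endothelial markers averaged 6.41, 6.26 and 6.49 with norepinephrine and 6.87, 6.21 and 6.60 with KCl, and their median difference was -0.15 (0.062 without KCl replicate 1). For 14 markers of pericytes, smooth muscle and meninges the mean was 6.86, 6.79 and 6.85 with norepinephrine and 7.14, 6.59 and 6.88 with KCl. Log2 array values have no true zero and no scanner files were used here, so none of these markers could be called absent.

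Of the marker lists of neural cells, that of astrocytes moved most. Of 8 astrocyte markers, 7 were above 0 with a median of 0.88 (0.69 without KCl replicate 1), and 6 were higher at an unadjusted p under 0.05 (75%, against 2.2% of all probe sets), without overlap. Their mean level was 9.08, 9.16 and 9.10 on the norepinephrine arrays and 8.15, 8.34 and 8.33 on the KCl arrays. Gfap, the astrocyte intermediate filament, differed by 1.89 ± 0.30, clusterin (Clu), a secreted chaperone, by 1.04 ± 0.18 and the water channel Aqp4 by 1.17 ± 0.22. S100b was the 1 marker below 0, at -0.29 ± 0.19, or -0.19 without KCl replicate 1, with overlapping groups. By limma 0 of the 8 passed the adjusted test on 6 arrays, and 1 passed without KCl replicate 1. Of 8 neuronal markers, 3 were higher at an unadjusted p under 0.05 (37.5%). They were Snap25 at 1.03 ± 0.27, Gap43 at 0.58 ± 0.19 and Tubb3 at 0.47 ± 0.18, and they did not overlap (background 4.36%). Map2 alone was lower without overlap (12.5%, background 4.77%), at -0.33 ± 0.18, or -0.40 without KCl replicate 1. The median of the neuronal list was 0.12 (0.33 without KCl replicate 1). Of 8 oligodendrocyte lineage markers 1 was higher at an unadjusted p under 0.05 (12.5%, background 2.2%), Pdgfra at 0.66 ± 0.24. Without overlap, 2 were higher (25%, background 4.36%), Pdgfra and Cnp at 0.45 ± 0.28. Without KCl replicate 1, 2 were higher at that level of p (25%, background 2.38%), Pdgfra at 0.57 and Sox10 at 0.45. The median of that list was -0.081 (0.064 without KCl replicate 1). The part of any of these cell types in the integrin and laminin values was not tested.

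All 10 laminin chains analysed were below 0 on 6 arrays, and 8 of 10 were without KCl replicate 1. Their median was -0.20, beside -0.075 over all named probe sets, and it was -0.083 without KCl replicate 1, beside 0.0083 over all. Without KCl replicate 2 the laminin median was -0.36. Lamc1, the gamma 1 chain found in most laminins, read 9.34, 9.16 and 9.13 with norepinephrine and 9.26, 9.59 and 9.65 with KCl. KCl replicate 1 fell among the norepinephrine values, and the difference of -0.29 ± 0.19 was -0.41 ± 0.16 without that array (unadjusted p of 0.0322).

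Lamb1, the beta 1 chain that usually joins gamma 1, gave 7.88, 7.56 and 7.51 with norepinephrine and 8.02, 7.97 and 8.07 with KCl, without overlap. The 3 KCl arrays lay close together. The difference was -0.37 ± 0.19 with an unadjusted p of 0.0808, and -0.37 also without KCl replicate 1. Lamb2, the beta 2 chain of synaptic and vascular laminins, read 7.82, 7.66 and 7.57 with norepinephrine and 7.97, 7.43 and 7.99 with KCl. KCl replicate 2 was its lowest array, and the difference of -0.12 ± 0.22 was -0.30 without KCl replicate 2 and -0.03 without KCl replicate 1.

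Among the laminin alpha chains, Lama2, the alpha 2 chain of muscle, nerve and astrocyte basement membranes, did not overlap between the groups. It read 6.30, 6.24 and 6.51 with norepinephrine and 6.87, 6.62 and 6.54 with KCl, a difference of -0.32 ± 0.19. Lama4, the alpha 4 chain of vascular laminins, had the lowest difference of the 10 chains, at -0.61 ± 0.29, and was looked at after its values were seen. Its readings were 7.24, 7.12 and 6.93 with norepinephrine and 7.17, 8.32 and 7.63 with KCl. KCl replicate 1 lay among the norepinephrine arrays, and without it the difference was -0.88 ± 0.22 (unadjusted p of 0.00346, adjusted p of 0.515 in limma). Without KCl replicate 2 it was -0.30.

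Lama1, Lama3, Lama5, Lamb3 and Lamc3 stood between -0.20 and -0.16 on 6 arrays with overlapping groups. Without KCl replicate 1 they stood between -0.11 and 0.05, and Lamb3 and Lamc3 were above 0. Lama3 and Lamb3 are chains of epithelial laminins, while Lama1 is a chain of embryonic and meningeal basement membranes.

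**Figure D2:**
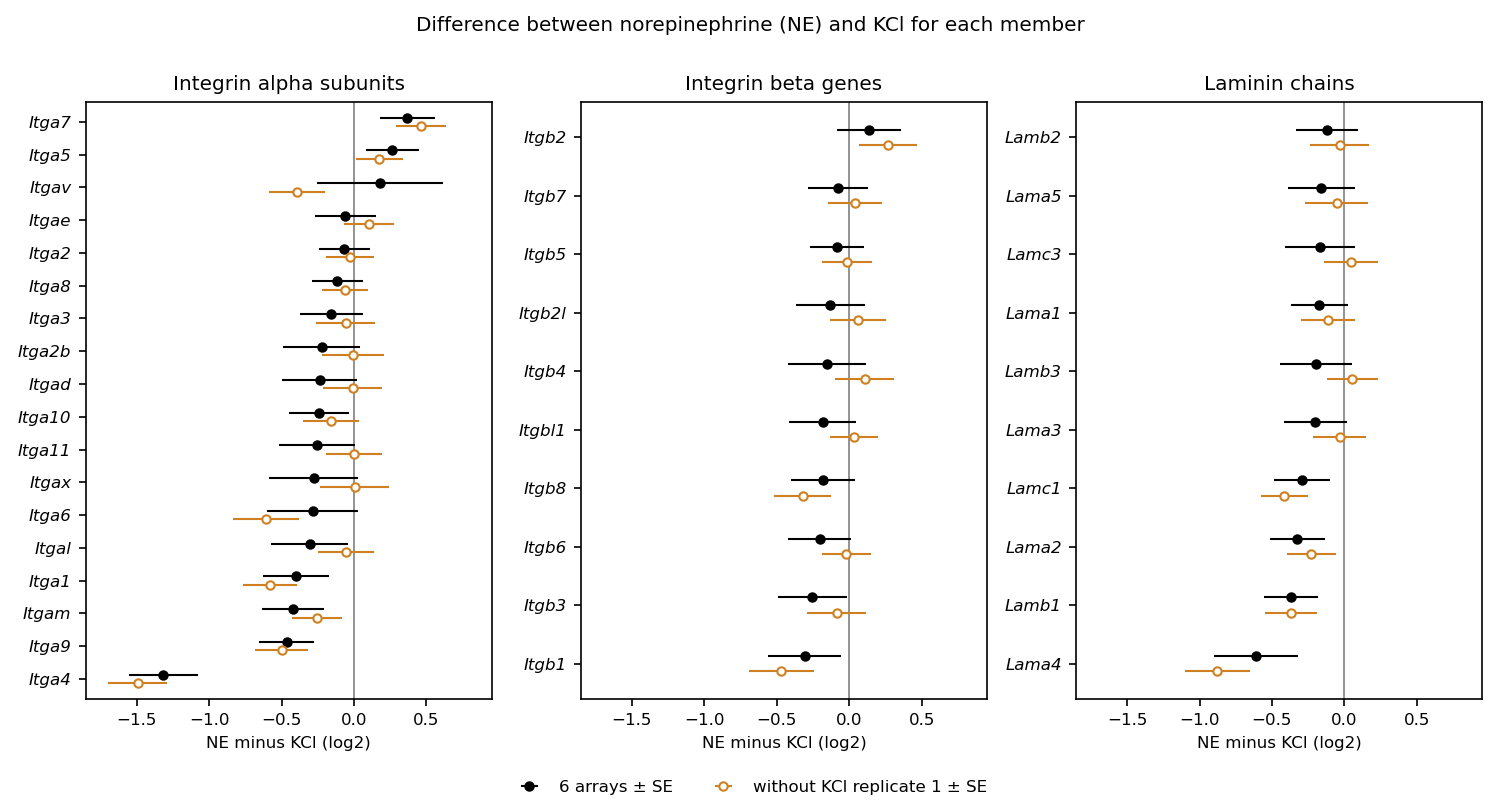
Norepinephrine minus KCl in log2 units for each of the 38 genes with its standard error, on 6 arrays (filled) and without KCl replicate 1 (open), for integrin alpha subunits, integrin beta genes and laminin chains. Itga4 lies farthest from 0 in both fits, Itgav changes side, and many genes near -0.2 on 6 arrays lie near 0 without KCl replicate 1.

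The family was then set against all named probe sets. By limma with Benjamini-Hochberg adjustment over 21640 probe sets, 0 members passed an adjusted p of 0.05, where the background was 0 probe sets or 0%. At an unadjusted p under 0.05, 2 of 38 members were lower with norepinephrine (5.26%, background 1.24%), namely Itga4 and Itga9, and 0 were higher (background 2.2%). Itga9 missed this level in 5 of the 6 fits that left out an array, all except the fit without KCl replicate 1. It also missed it when each array was centred on its median (unadjusted p of 0.0567), where Itgam passed in its place (unadjusted p of 0.0443). Groups did not overlap in 5 members that were lower with norepinephrine (13.2%, background 4.77%), which were Itga4, Itga9, Itgam, Lama2 and Lamb1. They did not overlap in 2 that were higher (5.26%, background 4.36%), Itga5 and Itga7, which is near the background.

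Without KCl replicate 1, 0 members passed the adjusted test, where 0.0185% of probe sets did. At an unadjusted p under 0.05, 6 members were lower with norepinephrine (15.8%, background 2.25%) and 1 was higher (2.63%, background 2.38%). The 6 were Itga4, Lama4, Itga1, Itga9, Itga6 and Lamc1, and the 1 was Itga7. The lone higher member is a share near the background.

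The direction of the differences was counted next. On 6 arrays 34 of 38 members were below 0 (89.5%), where 62% of all named probe sets were. Without KCl replicate 1 it was 27 of 38 (71.1%, background 47.8%). The 22 members under the median signal had a median of -0.20 with 21 below 0 on 6 arrays, and a median of -0.014 with 14 below 0 without KCl replicate 1. In 19 of the 22 (86.4%) that array was the highest, as it was in 78.4% of all probe sets under the median signal.

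The 16 members above the median signal of 7.16 were looked at apart. Itga4 and Lama4 were above it only through their KCl arrays, and had means of 7.04 and 7.10 with norepinephrine, so they are left out of the counts that follow. Of the other 14, 11 were below 0 on 6 arrays (78.6%, background 39.7% of the probe sets above the median signal in both groups) and 11 without KCl replicate 1 (78.6%, background 48.9%). Itgav was below 0 only without that array and Lamc3 only with it. The median of the 14 was -0.16 on 6 arrays and -0.19 without KCl replicate 1, where the probe sets above the median signal in both groups had 0.065 and 0.0056. KCl replicate 2 was the highest array in 5 of the 14 (35.7%), and in 29.5% of those probe sets. Signal depends on the probes as well as on the transcript, so the split says nothing of which gene is more abundant.

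By class, the median difference was -0.24 for the 18 integrin alpha subunits, from -1.32 for Itga4 to 0.37 for Itga7, and it was -0.057 without KCl replicate 1. For the 10 integrin beta genes it was -0.17, from -0.31 for Itgb1 to 0.14 for Itgb2. The beta median was 0.0092 without KCl replicate 1 and -0.27 without KCl replicate 2.

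**Figure D3:**
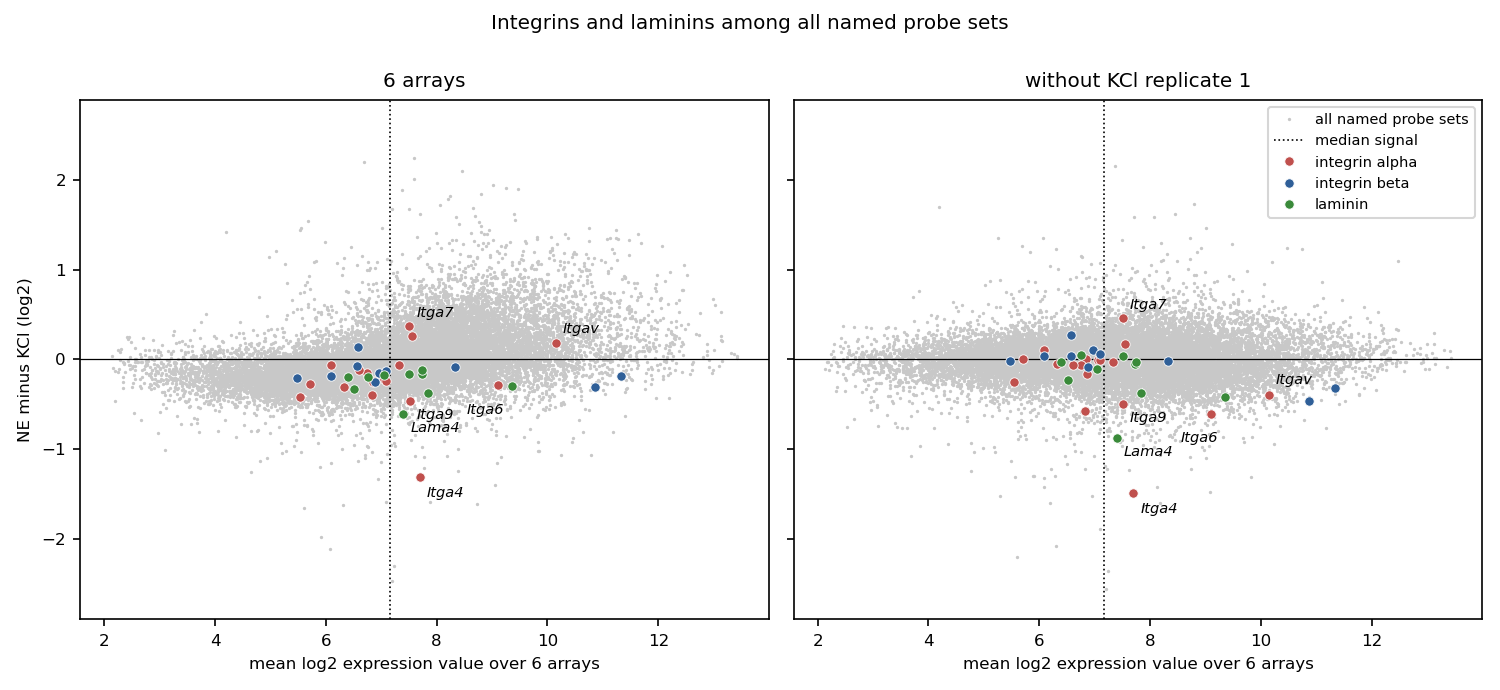
Norepinephrine minus KCl (log2) against the mean log2 expression value over 6 arrays for all 21640 named probe sets (grey) and the 38 family genes (coloured by class), on 6 arrays (left) and without KCl replicate 1 (right). The grey cloud tilts upward with signal on 6 arrays and is level without KCl replicate 1, while Itga4, Itga6, Itga9 and Lama4 lie below 0 in both panels.

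Genes that work with integrins were read from 3 lists. Of 37 measured genes of the adhesion machinery (adaptors, kinases and tetraspanins), 19 were below 0 (51.4%, against 62% of all probe sets) and 18 above. The list medians of 7.94 to 8.44 on single arrays lay above the median signal. Of probe sets above that median in both groups, 39.7% were below 0 on 6 arrays. Without KCl replicate 1, 22 of the 37 were below 0 (59.5%), against 47.8% of all probe sets and 48.9% of those above the median in both groups. In this list 0 passed the adjusted test. At an unadjusted p under 0.05, 1 was higher (2.7%, background 2.2%) and 0 were lower (background 1.24%), which is near the background. The list median was -0.022, beside -0.075 over all named probe sets, and it was -0.045 without KCl replicate 1, beside 0.0083 over all. The 1 gene was Cd151, a tetraspanin that associates with laminin-binding integrins. It read 8.73, 8.69 and 8.59 with norepinephrine and 7.26, 8.46 and 7.58 with KCl, without overlap, a difference of 0.90 ± 0.30 (0.65 without KCl replicate 1). The talin gene Tln1 stood at -0.21 ± 0.22, and the kindlin gene Fermt2 at 0.52 ± 0.44. Without KCl replicate 1 both were at -0.05.

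Of 24 measured basement membrane components and other integrin ligands, 1 was higher (4.17%, background 2.2%) and 1 lower (4.17%, background 1.24%) at this level, and 0 passed the adjusted test. A single gene in each direction is too few to set this list apart from the background. Fn1, fibronectin, a ligand of receptors with alpha 5, alpha 4 or alpha v, read 10.07, 9.85 and 10.06 with norepinephrine and 8.76, 8.94 and 9.96 with KCl. KCl replicate 3 lay within the norepinephrine range, and the difference was 0.77 ± 0.31, or 0.54 without KCl replicate 1. Ltbp1, which binds latent TGF-beta in the matrix, read 7.51, 7.72 and 7.54 with norepinephrine and 7.79, 8.26 and 8.12 with KCl, at -0.47 ± 0.20. Vcam1, the cell-surface ligand of alpha 4, stood at 0.33 ± 0.22, and tenascin C (Tnc), a ligand of alpha 9, at -0.25 ± 0.20, or -0.39 without KCl replicate 1.

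Of 15 measured other laminin receptors and dystroglycan complex genes, 1 was higher (6.67%, background 2.2%), 0 were lower at this level and 0 passed the adjusted test. The 1 gene is again too few to set the list apart. It was Sdc2, a heparan sulphate proteoglycan of the cell surface. Sdc2 read 9.17, 9.29 and 9.29 with norepinephrine and 7.60, 8.99 and 8.77 with KCl, so that KCl replicate 1 was far below the rest. Its difference was 0.80 ± 0.34 on 6 arrays and 0.37 without that array. Dag1, dystroglycan, stood at -0.17 ± 0.20, or -0.29 without KCl replicate 1.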

How the data were processed

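Each array has 1 column of log2 values per probe set, as deposited by the authors. Partek and RMA, a method of background correction, normalization and probe summarization, are named in the submitters' processing notes, with no version or setting. Per the labels' protocols, TRIzol-extracted RNA was freed of genomic DNA and made into cDNA with the Applause WT-Amp ST kit. Scanner files were not analysed here, so the signal over background is unknown and the number of arrays limits the precision.

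The table held 34760 probe sets. The platform annotation gave 1 symbol for 21640, several for 1321 and none for 11799. All 38 family genes matched RefSeq (GRCm38.p6) by Entrez identifier, with 0 symbols changed. Each gene was read on its probe set of highest mean. The 2 probe sets of Itgad stood at -0.24 and -0.18.

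The linear model of limma 3.58.1 (R 4.3.3) with empirical Bayes moderation was fitted to the 21640 probe sets on 6 arrays, with treatment as the only term, two-sided, with Benjamini-Hochberg adjustment, and checked on simulated data. The genes described array by array were those at an unadjusted p under 0.05, those without overlap, and the 3 of highest mean in each class. Itga1 and Lama4 were added after their values were seen. From 3 lists of related genes, those at an unadjusted p under 0.05 were named, and a few further ligands and adaptors were named after their values were seen. The family, lists and tests were chosen with earlier results of these data known. Alternatives were a further quantile normalization, centring, a filter on dim probe sets, array weights, a block for the replicate number, trend and robust moderation, the median over probe sets and leaving out each array.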

Additional observations from a re-analysis of the deposited data

How the results depend on the processing

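No probe set passed the adjusted test after a further quantile normalization, centring, the dim filter, trend and robust moderation or the replicate block, and leaving out 1 array gave 0 to 4. Array weights gave 5670 probe sets by the default method, which did not converge and gave KCl replicate 3 a weight of 673, and 1454 by the gene-by-gene method, which was added after the data were seen and gave it 6.76. Members lower with norepinephrine at an unadjusted p under 0.05 numbered 21 and 12 under these weights, where 23% and 12.7% of all probe sets were lower at that level, 6 after quantile normalization (2.07%), 4 with the replicate block (2.39%) and 1 to 6 without single arrays (0.504% to 7.68%). The count of 6 without a single array came from the fit without KCl replicate 1, where the share of all probe sets was 2.25%. The 7.68% came from the fit without KCl replicate 2, where 3 of 38 members were lower, a share near the background. The weighted counts are not read as results about the members. Without KCl replicate 1, 5 of the 16 members above the median signal were lower at that level (31.2%), where 309 of 10820 such probe sets were. Once Itga4 and Lama4, which exceed that median only through KCl, are left out, it was 3 of 14 (21.4%). Of all probe sets above the median signal in both groups, 2.7% were lower in that fit. Members higher numbered 1 after quantile normalization (2.53% of all probe sets), centring (2.26%), default weights (17.1%) and gene-by-gene weights (11.2%). Without single arrays they numbered 0 to 1 (0.92% to 8.64%), and the 1 came from the fit without KCl replicate 1 (2.38%). A single member, 2.63% of the 38, is near or below the share of all probe sets in each of these fits that gave 1. Itgav turned to -0.23 and -0.22 under the weights, and ranged from -0.39 to 0.57 without single arrays. Itga6 ranged from -0.61 to 0.054 without single arrays. Leaving out single arrays gave class medians of -0.35 to -0.057 for integrin alpha, -0.27 to 0.0092 for integrin beta and -0.36 to -0.083 for laminins, and the other settings kept them below 0. Of the 16 family genes described array by array, 10 passed the adjusted test under the default weights, where 5670 of 21640 probe sets passed. Under the gene-by-gene weights 5 passed (Itga1, Itga4, Itga7, Lama4 and Lamc1), where 1454 of 21640 did, and 0 passed under the other settings. The 16 genes were picked from values of these same data, so these counts are not read as results about the family. Norepinephrine and KCl arrays of equal replicate number had deviations correlated at 0.30, 0.63 and 0.085, which does not show pairing, and KCl replicate 1 and 3 correlated better with another number. The signal of the probe sets over background limits all of these and is unknown.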
